A study of Homo sapiens with 8 samples.

Results

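The BCL2 family decides whether a cell under stress opens its mitochondria and dies, and the mRNA levels of 10 of its genes were followed in human 293T cells with 1 of 4 hairpin RNAs. The genes were taken from a set list of family members that leaves out the p53 targets of the family: the survival genes BCL2, BCL2L1, BCL2L2 and MCL1, the effector gene BAK1, and the BH3-only genes BID, BAD, BIK, BMF and BCL2L11. All array probes annotated to these genes were collected. This gave 24 of the 47220 probes, of which 18 were detected on enough arrays to be kept, and 9 of the 10 genes were measured, among 12300 measured genes in all. BIK was the gene that was not measured.

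293T is a human embryonic kidney line that stably expresses the SV40 T antigen, a viral protein that binds p53. The groups were a control hairpin (NCsh) and hairpins that deplete the linker histone H1.2 (H1.2sh), the ubiquitin ligase scaffold Cul4A (Cul4Ash) or the transcription elongation factor PAF1 (PAF1sh). Each group had 2 Illumina bead arrays, 8 in all. All 4 groups carried a hairpin, the labels name 1 hairpin per target and no rescue, and they are silent on whether replicate arrays stem from separate cultures. The p-values thus rest on a spread that may be technical, and effects on the target and off-target effects of a hairpin cannot be told apart.

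In a healthy cell, survival proteins such as BCL2, BCL-XL (made from BCL2L1), BCL-W (BCL2L2) and MCL1 sit on the outer mitochondrial membrane and hold the pore-forming effectors BAK and BAX in check. BH3-only proteins sense damage: BIM (made from BCL2L11) and BID can bind survival proteins and effectors alike, whereas BAD, BMF and BIK act mainly by occupying the groove of survival proteins. Once effectors are free, they form pores, cytochrome c leaks out and caspases are activated. These steps happen at the protein level, and the arrays measured mRNA only.

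Each targeted gene was lower on the arrays labelled for it, with log2 changes against NCsh of -1.11 ± 0.09 for H1-2, -1.51 ± 0.08 for CUL4A and -2.58 ± 0.08 for PAF1 (limma, standard error, n = 2 arrays per group). The deposited tables name 2 arrays differently: values listed as H1.2sh replicate 2 and Cul4Ash replicate 2 in the scanner table are those of Cul4Ash replicate 2 and PAF1sh replicate 2 in the matrix. Groups were taken from the matrix, where log2 CUL4A read 6.91 and 6.88 in Cul4Ash against 8.33 to 8.63 elsewhere, PAF1 read 7.92 and 8.03 in PAF1sh against 10.50 to 10.77 elsewhere, and H1-2 read 8.05 on both H1.2sh arrays against 9.07 to 9.34 elsewhere. Fitted on the matrix values of the 5 arrays whose names agree, which leaves 1 array per depletion with a spread taken from NCsh, 1, 4 and 4 of the measured family genes passed in H1.2sh, Cul4Ash and PAF1sh against NCsh, beside 1, 5 and 5 on all 8 arrays. Of 5 markers of the 293T line, NEFM, NEFL, INA and VIM were detected on all 7 arrays with detection values and PAX2 was not kept. Of these 4 line markers, 1 rose and 1 fell in H1.2sh, 2 rose and 2 fell in Cul4Ash, and 1 rose and 2 fell in PAF1sh. Beside them, 15.4%, 20.6% and 38.9% of all genes were called in H1.2sh, Cul4Ash and PAF1sh. NEFM was among the line markers that fell in Cul4Ash (-1.43 ± 0.08) and PAF1sh (-2.12 ± 0.08). The summed intensity of these 4 line markers was 7959 to 8373 in NCsh, 9331 to 9408 in H1.2sh, 9624 to 10180 in Cul4Ash and 8495 to 8657 in PAF1sh. Of 12 markers of other cell types, 7 were measured, and their summed intensity was 745.4 to 779.7 in NCsh, 761 to 839 in H1.2sh, 757 to 770 in Cul4Ash and 774 to 821 in PAF1sh. The leukocyte markers PTPRC and CD3D and the endothelial markers PECAM1 and CDH5 were not kept, while ALB rose (0.39 ± 0.10) and HBA1 fell (-0.53 ± 0.16) in PAF1sh. Of 4 leukocyte markers, 1 was measured. It did not pass against NCsh in any depletion (0.26 in PAF1sh), but it was higher in PAF1sh than in Cul4Ash (0.41). The part of these shifts in the results was not tested. Array medians were 82.8 to 88.7 intensity units, 39.2% to 42.5% of probes were detected per array, and normalized arrays correlated at 0.996 within a group and at 0.973 to 0.989 between groups. Precision is limited by the number of arrays.

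Levels below are log2 intensities of the brightest kept probe of a gene after quantile normalization, in the order replicate 1 and replicate 2, and levels of different genes cannot be compared because each probe binds its own target. Changes are differences of log2 levels with the standard error from limma, and a gene is said to rise or fall only if its Benjamini-Hochberg adjusted p over all 12300 genes was under 0.05. In RNA from a whole culture, a change in the level per cell and a change in the mix of cells cannot be told apart.

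PAF1 depletion moved BH3-only genes in opposite directions: BCL2L11 and BMF rose while BID fell, and the survival genes BCL2L2 and BCL2 fell as well. Of the 9 measured genes, 2 rose, 3 fell and 4 did not pass the test in PAF1sh against NCsh, so that 55.6% of them were called, beside 38.9% of all 12300 genes. The median size of a change was 0.40 for these genes and 0.20 for all genes. The family genes and the further gene lists below were chosen with earlier results of these data known. The part of that choice in the shares given here and below was not tested.

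**Figure D1:**
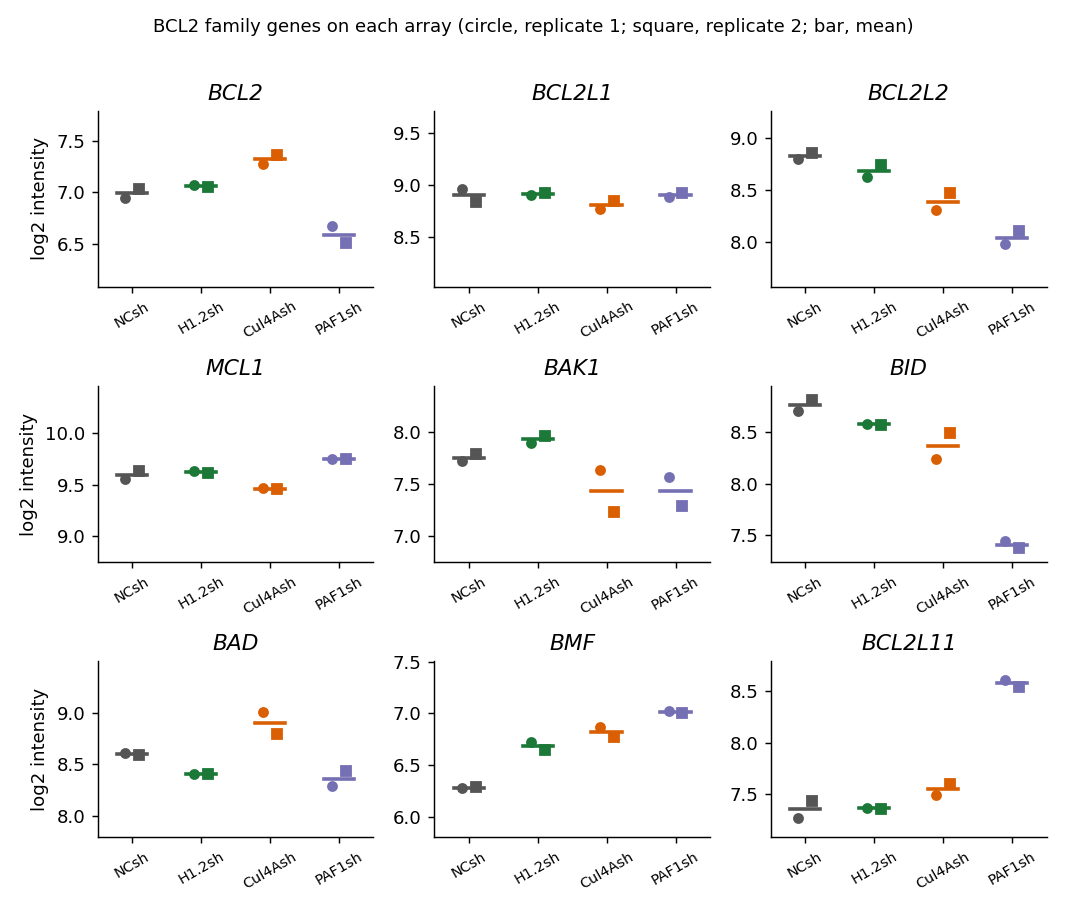
Log2 normalized intensity of each measured BCL2 family gene (1 panel per gene) on the 8 arrays, with points for single arrays and a bar for the mean of each group of 2. In PAF1sh, the BCL2L11 points lie at 8.60 and 8.54, above the other arrays, and the BID points at 7.44 and 7.38, below them.

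BCL2L11 encodes BIM, a BH3-only protein that binds every major survival protein. Its level was 7.27 and 7.44 in NCsh, 7.37 and 7.36 in H1.2sh, 7.50 and 7.60 in Cul4Ash, and 8.60 and 8.54 in PAF1sh. The PAF1sh arrays stood clear of the rest, and the Cul4Ash arrays lay above those of NCsh and H1.2sh by a smaller margin. As deposited, before normalization, the same probe read 150 and 191 intensity units in NCsh and 374 and 392 in PAF1sh. The change in PAF1sh was 1.22 ± 0.08, or 2.33-fold higher (adjusted p = 4.68e-06), and ranked 108 by size among 12300 genes. H1.2sh (0.01 ± 0.08, adjusted p = 0.957) and Cul4Ash (0.19 ± 0.08, adjusted p = 0.131) did not pass.

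BMF encodes a BH3-only protein that is kept on the cytoskeleton through a dynein light chain until it is released. It was dim, at 6.28 and 6.28 in NCsh, 6.73 and 6.65 in H1.2sh, 6.87 and 6.77 in Cul4Ash, and 7.03 and 7.01 in PAF1sh. The groups formed steps that did not overlap, with the control lowest and PAF1sh highest. The probe was not above background on either NCsh array, so each rise is a lower bound from measured means: BMF was at least 1.66-fold higher in PAF1sh (0.73 ± 0.08, adjusted p = 5.01e-05). With the background removed by neqc on the 5 arrays whose names agree in both deposited tables, the change in PAF1sh was 1.40 (adjusted p = 0.0215).

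BID links death receptors to mitochondria, since caspase 8 cuts the protein into its active form. Its level was 8.71 and 8.81 in NCsh, 8.58 and 8.57 in H1.2sh, 8.24 and 8.49 in Cul4Ash, and 7.44 and 7.38 in PAF1sh. The PAF1sh arrays were the lowest by a wide margin, followed by Cul4Ash. The deposited intensities of this probe were 401 and 516 in NCsh and 168 and 173 in PAF1sh. BID fell by 1.35 on the log2 scale in PAF1sh (standard error 0.09, adjusted p = 4.98e-06), which is 2.55-fold lower and ranked 64 by size among all genes. With the mean of all kept BID probes in place of the brightest probe, the change was -0.62 (adjusted p = 0.000224).

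The start-site windows of BCL2L11 and BMF, which rose in PAF1sh, and of BID, which fell most, are shown to set their sequences side by side. Each is the 250 bases before the outermost annotated start of the gene in RefSeq (assembly GRCh38.p14), written 5′ to 3′ on the gene's strand, with capitals for matches to the motifs searched. BCL2L11 lies on the plus strand at chr2:111120664-111120913, BMF on the minus strand at chr15:40108880-40109129 and BID on the minus strand at chr22:17774666-17774915.
BCL2L11: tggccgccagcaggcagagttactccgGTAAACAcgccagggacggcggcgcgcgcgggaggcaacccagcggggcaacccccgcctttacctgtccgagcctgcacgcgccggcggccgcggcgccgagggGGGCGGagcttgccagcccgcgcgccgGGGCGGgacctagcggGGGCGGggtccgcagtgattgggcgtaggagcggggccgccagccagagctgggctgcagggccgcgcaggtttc
BMF: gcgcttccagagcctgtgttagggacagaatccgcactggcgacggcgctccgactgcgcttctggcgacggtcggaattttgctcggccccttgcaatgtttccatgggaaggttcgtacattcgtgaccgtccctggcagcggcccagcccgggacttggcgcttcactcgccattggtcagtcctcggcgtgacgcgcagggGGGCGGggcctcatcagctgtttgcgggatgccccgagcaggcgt
BID: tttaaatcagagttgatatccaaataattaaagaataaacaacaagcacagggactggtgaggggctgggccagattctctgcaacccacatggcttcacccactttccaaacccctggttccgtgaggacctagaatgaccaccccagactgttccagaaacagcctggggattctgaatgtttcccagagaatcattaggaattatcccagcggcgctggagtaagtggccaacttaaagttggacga
The motifs searched on both strands were GGGCGG (bound by SP1), CACGTG (bound by MYC), GTAAACA (bound by FOXO factors), TGACGTCA (bound by CREB factors) and TTTGGCGC (bound by E2F factors). The BCL2L11 window held GGGCGG 3 times and GTAAACA 1 time, the BMF window held GGGCGG 1 time, and no match was found in the outermost BID window. The table lists 5 windows for BID, 2 for BMF and 1 for BCL2L11, so this difference holds for the outermost windows only. Over all 35116 windows of this length in the table, 42.6% held GGGCGG, 6.34% CACGTG, 2.98% GTAAACA, 1.65% TGACGTCA and 0.550% TTTGGCGC. Of the 10 genes, 7 had a window in the table, with GC contents from 47.6% in BID to 76.8% in BCL2L11, and 4 of the 7 held GGGCGG in the outermost window while 0 held CACGTG there. Counting all 14 windows that the table lists for these genes, 9 held GGGCGG, further BID windows among them, and 2 held CACGTG. BCL2L2, MCL1 and BIK were not matched. A match describes the letters of a window and does not show that a factor was bound there.

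BCL2L2 encodes BCL-W, a survival protein. It stood at 8.80 and 8.86 in NCsh, 8.62 and 8.74 in H1.2sh, 8.31 and 8.47 in Cul4Ash, and 7.97 and 8.10 in PAF1sh. Levels stepped down from the control through H1.2sh and Cul4Ash to PAF1sh without overlap between groups. In PAF1sh it was 1.73-fold lower (-0.79 ± 0.09, adjusted p = 8.07e-05).

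BCL2, the founding survival gene of the family, stood at 6.95 and 7.04 in NCsh, 7.07 and 7.05 in H1.2sh, 7.28 and 7.37 in Cul4Ash, and 6.67 and 6.51 in PAF1sh. The Cul4Ash arrays were the highest and the PAF1sh arrays the lowest. BCL2 was 1.32-fold lower in PAF1sh (-0.40 ± 0.08, adjusted p = 0.00346). Fitted on the matrix values of the 5 arrays whose names agree in both tables, this call was lost (-0.32, adjusted p = 0.0583), and with neqc on those arrays the change was -0.85 (adjusted p = 0.0282).

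The remaining survival genes did not pass against NCsh in any depletion. BCL2L1, the gene of BCL-XL, lay between 8.77 and 8.96 on every array, and the arrays of each depletion overlapped those of the control. Its change was 0.01 in H1.2sh (95% interval -0.16 to 0.19), -0.09 in Cul4Ash (-0.26 to 0.08) and 0.00 in PAF1sh (-0.17 to 0.17). MCL1, which encodes a short-lived survival protein, stood at 9.56 and 9.63 in NCsh, 9.64 and 9.62 in H1.2sh, 9.46 and 9.46 in Cul4Ash, and 9.75 and 9.75 in PAF1sh. Its Cul4Ash arrays were the lowest and its PAF1sh arrays the highest, but neither passed against NCsh (-0.14 ± 0.07, adjusted p = 0.214, and 0.16 ± 0.07, adjusted p = 0.115).

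BAK1, the gene of the pore-forming effector BAK, stood at 7.72 and 7.79 in NCsh, 7.90 and 7.97 in H1.2sh, 7.64 and 7.23 in Cul4Ash, and 7.57 and 7.29 in PAF1sh. The arrays of Cul4Ash and of PAF1sh differed among themselves more than those of the other groups. The change was 0.18 ± 0.13 in H1.2sh (adjusted p = 0.408), -0.32 ± 0.13 in Cul4Ash (adjusted p = 0.116) and -0.33 ± 0.13 in PAF1sh (adjusted p = 0.0765). BAK1 passed in PAF1sh under 7 of the alternatives, among them median scaling (-0.38, adjusted p = 0.0179), but its change was -0.18 without PAF1sh replicate 2 (adjusted p = 0.397) and -0.18 on 5 matrix arrays (adjusted p = 0.232).

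BAD encodes a BH3-only protein that growth factor signalling parks on 14-3-3 proteins by phosphorylation. It stood at 8.61 and 8.59 in NCsh, 8.41 and 8.41 in H1.2sh, 9.00 and 8.79 in Cul4Ash, and 8.29 and 8.44 in PAF1sh. Cul4Ash was above and both other depletions were below the control arrays. The change in H1.2sh (-0.19 ± 0.09, adjusted p = 0.194) and in PAF1sh (-0.23 ± 0.09, adjusted p = 0.0651) did not pass. BIK, which encodes a BH3-only protein of the endoplasmic reticulum, had 1 probe, and this probe was detected on 0 of 7 arrays, so no change is given. It still read 61.7 to 83.9 intensity units, which shows how much background stays in the values and that folds of dim probes are understated.

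**Figure D2:**
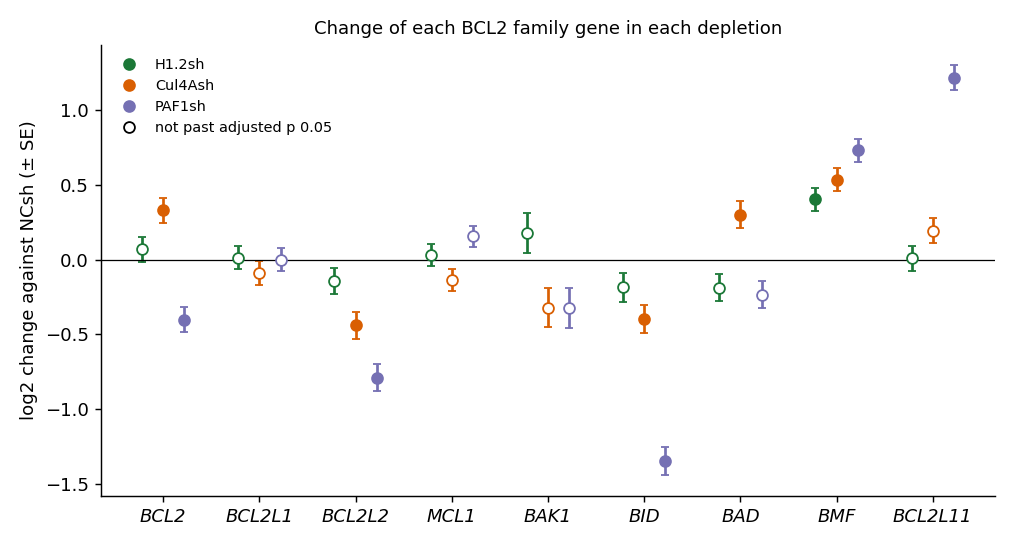
Log2 change of each measured BCL2 family gene against NCsh in the 3 depletions, with bars of 1 standard error from limma and filled points where the adjusted p was under 0.05. In PAF1sh, BID lies lowest at -1.35 and BCL2L11 highest at 1.22, while BCL2L1 stays at 0.01, -0.09 and 0.00.

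After Cul4A depletion, BMF, BCL2 and BAD rose and BCL2L2 and BID fell. Thus 3 of the 9 genes rose, 2 fell and 4 did not pass, or 55.6% called beside 20.6% of all genes, and the median size of a change was 0.32 for these genes and 0.14 for all genes. BMF rose at least 1.45-fold (0.54 ± 0.08, adjusted p = 0.000995). BCL2 rose by 0.33 ± 0.08 (adjusted p = 0.0199) and BAD by 0.30 ± 0.09 (adjusted p = 0.0409). In the limma fit over all kept probes, the second BCL2 probe (0.18 ± 0.09, adjusted p = 0.232) and the second BAD probe (0.11 ± 0.10, adjusted p = 0.513) did not pass. With the mean of kept probes, BCL2 passed (0.26, adjusted p = 0.0342) and BAD did not (0.21, adjusted p = 0.0616). BCL2L2 was 1.36-fold lower (-0.44 ± 0.09, adjusted p = 0.0067) and BID 1.32-fold lower (-0.40 ± 0.09, adjusted p = 0.0151), or -0.26 with the mean of its kept probes (adjusted p = 0.0452).

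BMF and BCL2L2 were called in Cul4Ash under 18 and 17 of 19 alternatives, whereas the calls of BCL2 and BAD were close to the threshold. With median scaling, 1 gene rose and 3 fell, and without normalization 1 rose and 2 fell. BAD (adjusted p = 0.356 and 0.29) and BCL2 (adjusted p = 0.126 and 0.0996) no longer passed under these scalings. Each array of this comparison carried some calls: 2 genes were left without Cul4Ash replicate 1 (BMF, and BAK1 at -0.53 with adjusted p = 0.0272), and 3 were left without NCsh replicate 1 (BCL2 and BAD lost, adjusted p = 0.115 and 0.12) or NCsh replicate 2 (BID and BAD lost, adjusted p = 0.0805 and 0.132). BCL2 was also lost without Cul4Ash replicate 2 (adjusted p = 0.107), and BAD without either H1.2sh array (adjusted p = 0.0599 and 0.0598).

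After H1.2 depletion, BMF was the only one of the 9 genes that passed. It rose at least 1.32-fold (0.40 ± 0.08, adjusted p = 0.00678), so 11.1% were called beside 15.4% of all genes, a share near the background. The median size of a change was 0.14 for these genes and 0.13 for all genes. Without H1.2sh replicate 1 the adjusted p of BMF was 0.0614, and without normalization it was 0.0678.

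The other probes of these genes gave a second reading of the same RNA. They share the array and the RNA with the probes above and are not replicates. In a fit over all 22131 kept probes with its own adjustment, 10 of the 18 kept probes of the family genes were called in PAF1sh, beside 29.1% of all kept probes. In Cul4Ash 4 were called, beside 13.9%, and in H1.2sh 1 was called, beside 8.93%.

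All 3 kept BCL2L11 probes rose in PAF1sh. The second probe (ILMN_1774997) stood at 6.56 and 6.39 in NCsh and at 7.40 and 7.25 in PAF1sh. It was not above background in NCsh and rose at least 1.81-fold (adjusted p = 0.000125). This probe was detected on 3 of 7 arrays. Of the arrays with undisputed names, only PAF1sh replicate 1 detected it, and its other detections fell on arrays with disputed names. It was thus kept, at least in part, through the group where it was high, and its rise is not separate support. The third probe (ILMN_1766541) went from 6.44 and 6.56 to 6.99 and 7.17, a change of 0.58 ± 0.11 (adjusted p = 0.00306). Both sets of arrays were apart for each of these probes. A second BMF probe (ILMN_1695354), detected on 2 of 7 arrays, stood at 6.14 and 6.31 in NCsh and at 6.76 and 6.95 in PAF1sh, at least 1.55-fold higher (adjusted p = 0.00176). Of the arrays with undisputed names, only PAF1sh replicate 1 detected this BMF probe, and its other detection fell on an array with a disputed name. The probe was thus kept, at least in part, through the group where it was high, and its rise is not separate support. The same probe did not pass in H1.2sh (0.07 ± 0.11, adjusted p = 0.766) or Cul4Ash (0.23 ± 0.11, adjusted p = 0.194), where the brightest BMF probe did.

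The kept BID probes did not read alike. The second (ILMN_2372413) stood at 7.47 and 7.58 in NCsh and at 6.79 and 6.83 in PAF1sh, and fell by 0.72 on the log2 scale (adjusted p = 0.000124). The third (ILMN_2259495), detected on 4 of 7 arrays, stood at 6.69 and 6.28 in NCsh and at 6.81 and 6.58 in PAF1sh, where the arrays overlapped and the test was not passed (0.21 ± 0.15, adjusted p = 0.334). The second BCL2 probe (ILMN_1801119) stood at 6.85 and 6.92 in NCsh and at 6.54 and 6.61 in PAF1sh. It was 1.24-fold lower in PAF1sh (adjusted p = 0.0293). Of the 7 arrays with detection values, 6 detected it and only PAF1sh replicate 1 did not. The second MCL1 probe (ILMN_1756806) changed by -0.01 ± 0.09 in PAF1sh (adjusted p = 0.963) and the second BAD probe (ILMN_1685398) by -0.11 ± 0.10 (adjusted p = 0.446). Which transcripts of a gene each probe detects is not given in the files used here.

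**Figure D3:**
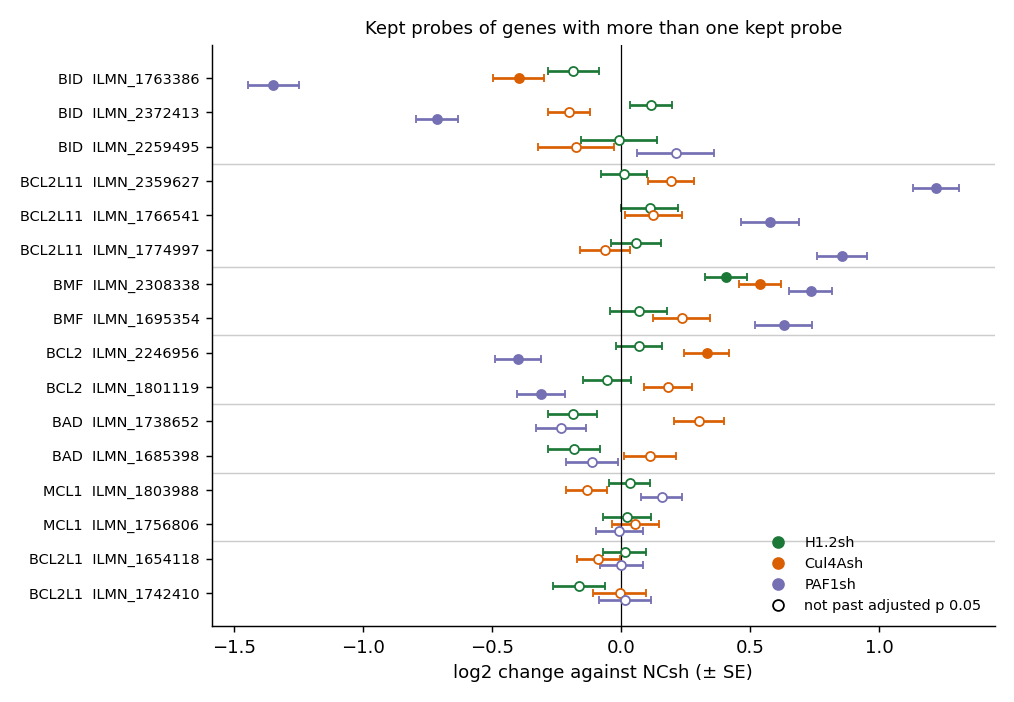
Log2 change against NCsh in PAF1sh, Cul4Ash and H1.2sh for the kept probes of BCL2 family genes with more than 1 kept probe, with bars of 1 standard error and points filled where the probe passed an adjusted p of 0.05 over 22131 probes. The 3 BCL2L11 probes lie to the right in PAF1sh, and of the 3 BID probes 2 lie to the left.

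Compared directly with the other depletions, the brightest probes of BCL2L11 and BID gave the largest changes in PAF1sh. With the mean of all kept probes, BCL2L11 still led in both comparisons (0.82 against H1.2sh and 0.80 against Cul4Ash), but BID was at -0.59 and -0.36, behind BCL2L2 (-0.65) against H1.2sh and behind BCL2 (-0.61) and BAD (-0.38) against Cul4Ash. PAF1sh against H1.2sh called 6 of the 9 genes (66.7%, beside 40.2% of all genes): BCL2L11 (1.21, adjusted p = 5.15e-06) and BMF (0.33, adjusted p = 0.00609) were higher in PAF1sh, and BID (-1.16, adjusted p = 1.05e-05), BCL2L2 (-0.65, adjusted p = 0.000275), BAK1 (-0.50, adjusted p = 0.012) and BCL2 (-0.47, adjusted p = 0.00136) were lower. On the matrix values of 5 arrays, 3 were called, and BMF (adjusted p = 0.109), BAK1 (0.0885) and BCL2 (0.0504) were not. BAK1 was also lost without PAF1sh replicate 2 (adjusted p = 0.103) or H1.2sh replicate 2 (0.0628), and BMF without H1.2sh replicate 2 (0.05).

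PAF1sh against Cul4Ash likewise called 6 genes (66.7%, beside 41.0% of all genes). BCL2L11 (1.03, adjusted p = 1.13e-05) and MCL1 (0.29 ± 0.07, adjusted p = 0.00853) were higher in PAF1sh. BID (-0.95, adjusted p = 3.67e-05), BCL2 (-0.73, adjusted p = 8.74e-05), BAD (-0.53, adjusted p = 0.000965) and BCL2L2 (-0.35, adjusted p = 0.00943) were lower. BMF did not pass (0.20, adjusted p = 0.0629). MCL1 was lost without normalization (adjusted p = 0.0958, with 1 gene higher and 4 lower), with neqc (0.211), its offset of 50 (0.132) or 5 matrix arrays (0.126), and with the mean of both MCL1 probes (0.11, adjusted p = 0.218), and BCL2L2 was lost with median scaling (adjusted p = 0.0654) and without Cul4Ash replicate 2 (0.0777) or PAF1sh replicate 1 (0.0688).

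H1.2sh and Cul4Ash differed in 4 genes (44.4%, beside 22.6% of all genes). BAK1 (0.50 ± 0.13, adjusted p = 0.023) and BCL2L2 (0.30, adjusted p = 0.0376) were higher in H1.2sh, while BAD (-0.49 ± 0.09, adjusted p = 0.004) and BCL2 (-0.26, adjusted p = 0.0474) were lower. BAD was the member of these that kept its call in every alternative except neqc on 5 arrays (adjusted p = 0.12). The number called was 1 without either H1.2sh array and 2 without Cul4Ash replicate 1, and without Cul4Ash replicate 2 BAK1 and BCL2 were lost (adjusted p = 0.15 and 0.209) while BID passed (adjusted p = 0.0492).

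Of 11 other genes of the family, 8 were measured. Of these 8, 1 rose and 1 fell in H1.2sh, 2 rose and 1 fell in Cul4Ash, and 2 rose and 1 fell in PAF1sh. Beside them, 15.4%, 20.6% and 38.9% of all genes were called, so that the share was not above the background in PAF1sh. BAX, the second effector gene, stood at 9.75 and 9.46 in NCsh, 9.13 and 9.38 in H1.2sh, 9.65 and 9.27 in Cul4Ash, and 9.68 and 9.60 in PAF1sh, and BBC3, the p53 target that encodes PUMA, did not pass either. PMAIP1, another p53 target and the gene of NOXA, which binds MCL1, stood at 9.95 and 9.90 in NCsh, 9.20 and 9.28 in H1.2sh, 9.42 and 9.57 in Cul4Ash, and 9.76 and 9.80 in PAF1sh. All depletion arrays were below the control arrays. It fell in H1.2sh (-0.69 ± 0.08, adjusted p = 0.000329) and Cul4Ash (-0.43 ± 0.08, adjusted p = 0.0044) and did not pass in PAF1sh (-0.15 ± 0.08, adjusted p = 0.184). HRK, a BH3-only gene best known from neurons, stood at 7.54 and 7.33 in NCsh and at 8.12 and 8.01 in H1.2sh, where it rose (0.63 ± 0.15, adjusted p = 0.0177). BCL2L12 rose in Cul4Ash (0.31 ± 0.08) and PAF1sh (0.41 ± 0.08), and BCL2L13 fell in PAF1sh (-0.27 ± 0.07). BCL2L14 was dim and not above background in NCsh (6.34 and 6.25). It stood at 6.545 and 6.47 in H1.2sh, 6.52 and 6.59 in Cul4Ash, and 6.57 and 6.59 in PAF1sh. It rose in Cul4Ash (adjusted p = 0.0357) and PAF1sh (adjusted p = 0.0143) and did not pass in H1.2sh. BOK passed in none of the 3.

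A further 7 lists, the other family genes among them, covered the pathway around these genes: 68 genes, of which 53 were measured. In PAF1sh, 19 rose, 5 fell and 29 did not pass (45.3% called, beside 38.9% of all genes), with a median change of 0.16 beside 0.00 for all genes. With median scaling 11 rose and 6 fell, and without normalization 10 and 6. In Cul4Ash, 11 rose and 5 fell (30.2%, beside 20.6%), and the split was 2 and 5 with median scaling and 3 and 5 without normalization. In H1.2sh, 7 rose and 1 fell (15.1%, beside 15.4%), with 3 and 4 under both other scalings.

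Of 9 transcription factor genes whose products are known to act on family genes, 7 rose and 1 fell in PAF1sh, beside 38.9% of all genes called. DDIT3 (CHOP, a stress factor that can activate BCL2L11) rose by 1.15 ± 0.09, JUN by 0.77 ± 0.08 and FOXO4 by 0.75 ± 0.08, and the others that rose changed by 0.26 to 0.52. MYC fell by 1.18 on the log2 scale (adjusted p = 3.35e-06). In Cul4Ash, JUN (0.89 ± 0.08), FOXO4 (0.50 ± 0.08) and STAT3 (0.35 ± 0.10) rose and MYC fell (-0.54 ± 0.07). In H1.2sh, DDIT3 (0.81 ± 0.09) and JUN (0.38 ± 0.08) rose.

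Among 8 measured partners that hold BH3-only proteins, 4 rose and 1 fell in PAF1sh, beside 38.9% of all genes called. DYNLL2, the dynein light chain that binds BMF, rose by 1.11 ± 0.08 (adjusted p = 4.92e-06) and also rose in H1.2sh (0.50 ± 0.08), while DYNLL1, the light chain that binds BIM, passed in no depletion (-0.07 ± 0.09 in PAF1sh). Of the 14-3-3 genes, whose proteins bind phosphorylated BAD, YWHAQ (0.32 ± 0.08) and YWHAB (0.27 ± 0.09) rose and YWHAE fell (-0.66 ± 0.17) in PAF1sh, and YWHAG fell in Cul4Ash (-0.52 ± 0.09).

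Of 13 measured genes of the apoptosome, the caspases and the proteins that mitochondria release, 3 rose and 0 fell in each depletion, beside 15.4%, 20.6% and 38.9% of all genes called in H1.2sh, Cul4Ash and PAF1sh, so that the share was not above the background in PAF1sh. They were HTRA2 (0.47 ± 0.08), AIFM1 (0.46 ± 0.08) and CYCS, the cytochrome c gene (0.40 ± 0.08), in PAF1sh, APAF1, the apoptosome scaffold (0.35 ± 0.09), AIFM1 (0.30 ± 0.08) and CYCS (0.29 ± 0.08) in Cul4Ash, and HTRA2 (0.41 ± 0.08), DFFA (0.40 ± 0.10) and DIABLO (0.26 ± 0.08) in H1.2sh. Of 6 measured death receptor genes, 2 rose and 2 fell in PAF1sh, beside 38.9% of all genes called. Higher in PAF1sh were TNFRSF10B, a TRAIL receptor gene (0.48 ± 0.08), and TRADD (0.27 ± 0.10). Lower were TNFRSF1A (-0.53 ± 0.11) and FADD, the adaptor that recruits caspase 8 (-0.52 ± 0.08). TNFRSF10B also rose in Cul4Ash (0.38 ± 0.08). Of 3 measured inhibitor of apoptosis genes, BIRC2 fell in Cul4Ash (-0.36 ± 0.10), beside 20.6% of all genes called. Of 6 genes that set MCL1 protein turnover, 1 rose and 0 fell in PAF1sh, beside 38.9% of all genes called. In Cul4Ash 2 rose and 1 fell, beside 20.6%. The deubiquitinase gene USP9X rose in PAF1sh (0.30 ± 0.07) and Cul4Ash (0.25 ± 0.07), and in Cul4Ash the ligase gene HUWE1 rose (0.37 ± 0.11) and MARCHF5 fell (-0.43 ± 0.09).

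**Figure D4:**
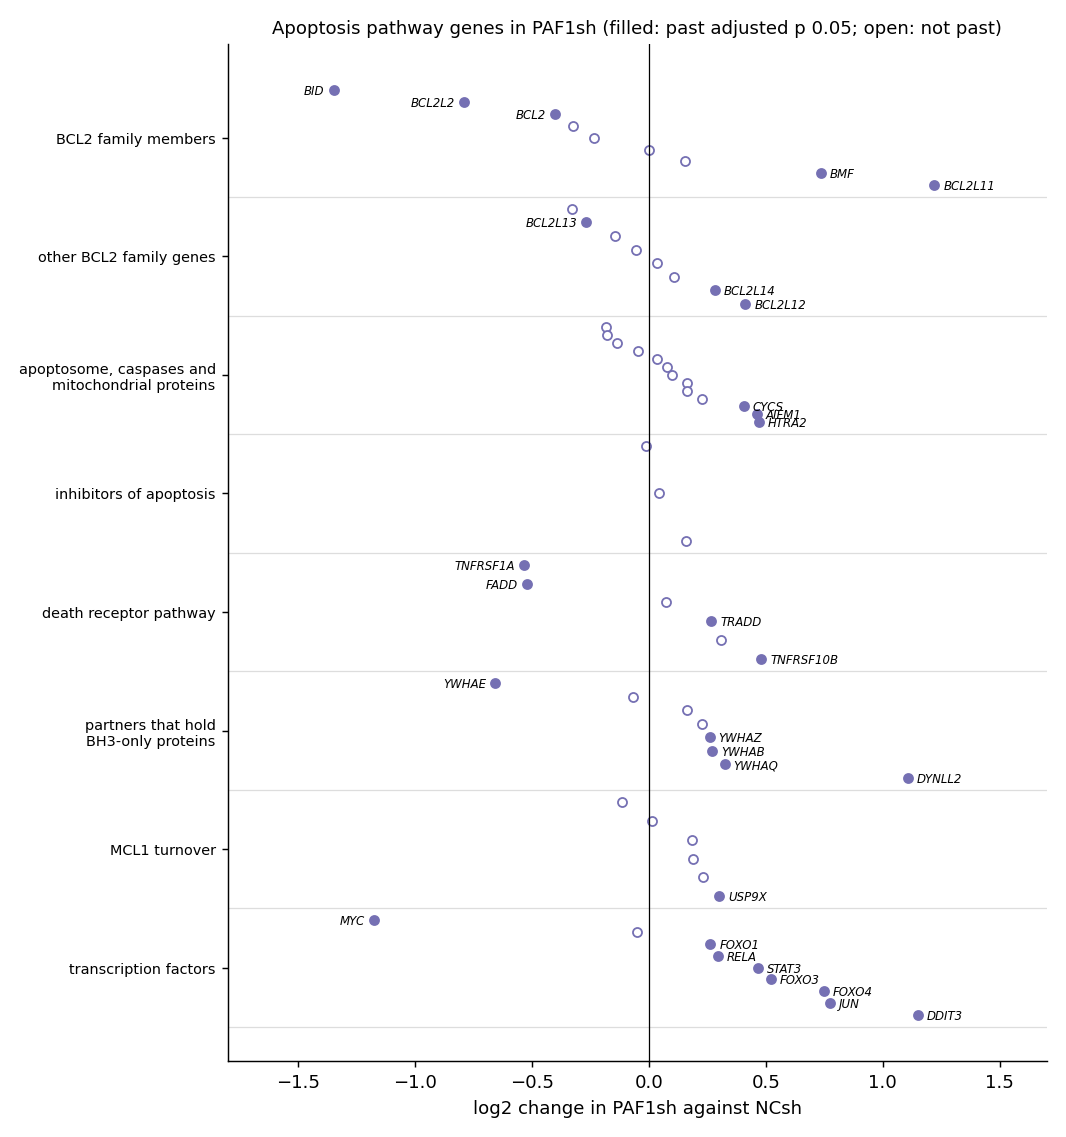
Log2 change in PAF1sh against NCsh for the measured BCL2 family genes and the other apoptosis pathway genes, 1 row of points per gene list, filled and named where the adjusted p was under 0.05. BCL2L11, DDIT3 and DYNLL2 lie farthest to the right (1.22, 1.15 and 1.11) and BID and MYC farthest to the left (-1.35 and -1.18).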

How the data were processed

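Total RNA from 293T cells, 2 samples per group, was hybridized as biotinylated cRNA to Illumina bead arrays, per the labels' protocols. The authors deposited a matrix of linear intensity values per probe for all 8 arrays and a scanner table of intensity and detection p-values for 7 arrays. The software was not given in the sources used here. Its values show that the deposited matrix is background-adjusted and not normalized between arrays. The 2 tables name 2 arrays differently. The matrix, whose columns carry sample accessions, gave each array its group. Of the scanner table, 2 empty columns were not used, and the detection p-values of the 2 disputed arrays served only the filter, so that 1 H1.2sh array at most informed it.

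The log2 of the matrix values was quantile normalized. A probe was kept with a detection p under 0.05 on at least 2 of 7 arrays, and the brightest kept probe stood for a gene. Probes were named through the platform annotation in GEO. Limma 3.58.1 in R 4.3.3 (lmFit, then eBayes) fitted 12300 genes to 4 group means, with 4 residual and 6.19 prior degrees of freedom, and Benjamini-Hochberg adjustment at 0.05. The fit was tested on simulated data. Bounds given as at least some fold compare measured means where the dimmer group was not above background on its arrays with undisputed names. They allow for no spread between arrays.

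Named are all 10 family genes, the other family genes measured, the targets and, per further list and depletion, up to 3 called genes per direction with the largest change. The genes and lists were chosen with earlier results of these data known. Alternatives were other scalings, filters, background corrections, probe rules, spread estimates and arrays. Protein sequences were not used here.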

Additional observations from a re-analysis of the deposited data

How the results depend on the processing

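In PAF1sh against NCsh, limma called BID, BCL2L11, BCL2L2 and BMF in 19 of 19 alternatives, with changes of -1.66 to -0.62 for BID, 0.88 to 1.67 for BCL2L11, -1.09 to -0.73 for BCL2L2 and 0.68 to 1.40 for BMF. BCL2 was called in 18 of 19. The fit to the matrix values of 5 arrays was added after seeing the data.

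Counts of family genes called, given without normalization, without a filter on dim probes, with neqc on 5 arrays and with neqc at an offset of 50, were 3, 3, 0 and 3 in Cul4Ash (5 in the report). In H1.2sh (1 in the report) 0 were called without normalization, with neqc and with the mean of all kept probes. For H1.2sh against Cul4Ash (4) the count was 2 with median scaling, without normalization or without the filter, 0 with neqc, and 1 with the offset of 50 or the matrix values of 5 arrays. The latter gave 3 for PAF1sh against H1.2sh (6). At an unadjusted p under 0.05, limma with neqc had 1, 5 and 2 of these genes for H1.2sh, Cul4Ash and H1.2sh against Cul4Ash, and in H1.2sh 4 without normalization and 2 with the mean of probes. Leaving out 1 array gave 0 to 1 in H1.2sh, 2 to 5 in Cul4Ash and 1 to 4 between them.

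For pathway genes, neqc gave 0 for H1.2sh (8 in the report), 0 for Cul4Ash (16) and 10 for PAF1sh (24), with 11, 15 and 20 at an unadjusted p under 0.05. Limma-trend gave 14 in H1.2sh. In Cul4Ash the count was 7 with median scaling or no filter, 8 without normalization, with the offset of 50 or with 5 matrix arrays, and 10 with the mean of probes. Leaving out 1 array gave 3 to 8 in H1.2sh (lowest without H1.2sh replicate 1) and 6 to 18 in Cul4Ash, where it was 6 and 10 without NCsh replicate 1 and 2 and 7 and 9 without Cul4Ash replicate 1 and 2.

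For probes of the family genes, 0 were called in H1.2sh (1) with median scaling, no normalization, no filter, neqc, the offset of 50 or 5 matrix arrays, with 4, 4, 1, 1, 1 and 1 at an unadjusted p under 0.05. In Cul4Ash (4), 2 were called with no filter, only the 2 groups compared or 5 matrix arrays, and 0 with neqc (4 unadjusted). Leaving out 1 array gave 0 to 1 and 1 to 4, with 0 without any array of NCsh or H1.2sh, 1 without either NCsh array and 2 without Cul4Ash replicate 1.

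Changes that turned sign were not past the threshold under any of these settings. For H1.2sh against NCsh, scaling to the median or leaving out normalization gave -0.013 and -0.032 for BCL2, -0.096 and -0.11 for BCL2L1, -0.058 and -0.077 for MCL1, and -0.094 and -0.11 for BCL2L11. With neqc and its offset of 50 they were -0.019 and -0.017 for BCL2L1 and -0.092 and -0.069 for BCL2L11. With the mean of probes, BCL2L1 was at -0.075 in H1.2sh, 0.0057 in PAF1sh, -0.026 in H1.2sh against Cul4Ash and 0.081 in PAF1sh against H1.2sh, where BAD was at 0.012. In that comparison median scaling and no normalization gave 0.030 and 0.056 for BCL2L1 and 0.013 and 0.039 for BAD, and in PAF1sh against Cul4Ash median scaling gave 0.013 for BAK1. Leaving out 1 array gave, in H1.2sh, -0.048 to 0.075 for BCL2L1, -0.0035 to 0.066 for MCL1 and -0.072 to 0.091 for BCL2L11, and in PAF1sh -0.063 to 0.060 for BCL2L1. It gave -0.033 to 0.0047 for BCL2L1 and -0.12 to 0.027 for BAD in PAF1sh against H1.2sh, and -0.21 to 0.20 for BAK1 in PAF1sh against Cul4Ash. The cause was not tested.

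Same-numbered arrays shared no strong shift (correlations of their deviations from -0.133 to 0.111), which does not settle whether replicate numbers pair the samples. With the replicate block, 1, 4 and 5 family genes were called for H1.2sh, Cul4Ash and PAF1sh against NCsh and 3, 6 and 6 between depletions, ending the calls of BAD in Cul4Ash (adjusted p = 0.0576) and BCL2 in H1.2sh against Cul4Ash (0.0676). The median change of all genes moved most for H1.2sh against NCsh, from -0.0057 to -0.0901 without normalization. For all genes (1899, 2539 and 4784 in H1.2sh, Cul4Ash and PAF1sh against NCsh), limma with neqc called 0, 0 and 2039 (2614, 3161 and 4655 at an unadjusted p under 0.05), no filter 1035 in H1.2sh and 1581 in Cul4Ash, the offset of 50 gave 743 and 1382, 5 matrix arrays 690 and 1295, and no normalization 1365 in Cul4Ash. Between depletions, H1.2sh against Cul4Ash (2781) had 0 with neqc (2697 unadjusted), 1707 with median scaling, 1755 without normalization, 1820 without the filter, 846 with the offset of 50 and 822 with 5 matrix arrays. PAF1sh against H1.2sh (4942) had 966, 3103 and 2995 with neqc, the offset of 50 and 5 matrix arrays, and PAF1sh against Cul4Ash (5045) had 1240 with neqc and 3219 with 5 matrix arrays. Leaving out 1 array gave 733 to 1864 genes in H1.2sh, 1314 to 2512 in Cul4Ash and 1459 to 2756 between these depletions, with the low counts wherever an array of the groups compared was left out. Probe signal close to background limits BMF, BCL2 and BIK most.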
